A study of Homo sapiens with 11 samples.

Results

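The transcripts described here were the well-expressed LINC RNAs of cardiomyocytes grown from the WTC11 stem cell line. They were the rows of the count table whose symbol is LINC followed by digits and whose counts, summed over all 11 libraries, reached 1000. This gave 75 of 19990 rows, or 75 of the 359 LINC rows. The RNAs were thus selected on the summed raw count, so their abundance is a description, and only differences between days were tested. Just inside the threshold stood LINC00629 with 1008 counts, LINC01772 with 1067 and LINC01881 with 1070, and just outside it LINC02610 with 985, LINC02604 with 963 and LINC00514 with 959. All 75 passed the filter on low counts. The day means of 60 of them, scaled to 11 libraries, reached 1000 on every day, and 3 (LINC01881, LINC01963 and LINC02381) reached it on 1 day only.

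LINC is a provisional symbol for a long intergenic noncoding RNA, a spliced and usually polyadenylated transcript without a long open reading frame. Such RNAs can act on chromatin or on other RNAs, can mark an active promoter or enhancer beside a coding gene, or can serve as hosts of small RNAs, and for many of them no function is known. In the heart several are restricted to cardiomyocytes, and they are often less abundant and more specific to a cell type than mRNAs.

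WTC11 is a widely used human line of induced pluripotent stem cells, taken here at passage 63 with no genetic change named in the labels. All wells came from one differentiation, in which CHIR99021, a GSK3 inhibitor, was followed by IWP2, an inhibitor of Wnt secretion, and were then held in B27 medium with insulin. Wells for poly(A) RNA-seq were taken on Day 30 (n = 4), Day 60 (n = 3) and Day 113 (n = 4) of culture. The wells are replicates of culture within that differentiation, so the p-values cover neither a second differentiation nor a second line. The labels name no batch, and the age of a culture and the date of its collection cannot be told apart.

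Sequences upstream of 4 of these RNAs are given first, because their levels carry the main contrasts described below. They are the most abundant LINC RNA (LINC00881), one that fell late (LINC01460), one that fell early (LINC00960) and one that rose early (LINC01531). Each run of bases spans 250 bases before to 50 bases after the annotated start, taken from RefSeq on GRCh38.p14 and written 5′ to 3′ on the strand of the gene. The regions are chr3:157089631-157089930 (plus strand) for LINC00881, chr2:27715683-27715982 (minus strand) for LINC01460, chr3:75672031-75672330 (plus strand) for LINC00960 and chr19:35405357-35405656 (plus strand) for LINC01531. Capitals mark matches, on either strand, to AGATAA (bound by GATA factors), TATAAA (the TATA box) and CATTCC (bound by TEAD factors).
LINC00881: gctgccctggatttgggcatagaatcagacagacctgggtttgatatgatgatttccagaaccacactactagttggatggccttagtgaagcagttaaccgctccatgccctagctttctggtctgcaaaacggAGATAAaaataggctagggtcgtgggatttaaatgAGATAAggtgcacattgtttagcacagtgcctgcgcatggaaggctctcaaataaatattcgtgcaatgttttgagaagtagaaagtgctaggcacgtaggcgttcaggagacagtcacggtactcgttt
LINC01460: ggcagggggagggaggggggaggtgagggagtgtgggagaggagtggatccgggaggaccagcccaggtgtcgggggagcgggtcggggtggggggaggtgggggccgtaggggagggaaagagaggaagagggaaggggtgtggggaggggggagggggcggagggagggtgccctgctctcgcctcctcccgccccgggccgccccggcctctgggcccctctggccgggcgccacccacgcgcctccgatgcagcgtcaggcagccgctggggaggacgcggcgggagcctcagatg
LINC00960: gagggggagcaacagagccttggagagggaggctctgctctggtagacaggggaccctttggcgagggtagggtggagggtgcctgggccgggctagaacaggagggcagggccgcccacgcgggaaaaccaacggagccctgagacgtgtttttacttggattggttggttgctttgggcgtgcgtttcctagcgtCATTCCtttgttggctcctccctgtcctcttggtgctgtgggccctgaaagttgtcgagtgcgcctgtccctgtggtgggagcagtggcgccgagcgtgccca
LINC01531: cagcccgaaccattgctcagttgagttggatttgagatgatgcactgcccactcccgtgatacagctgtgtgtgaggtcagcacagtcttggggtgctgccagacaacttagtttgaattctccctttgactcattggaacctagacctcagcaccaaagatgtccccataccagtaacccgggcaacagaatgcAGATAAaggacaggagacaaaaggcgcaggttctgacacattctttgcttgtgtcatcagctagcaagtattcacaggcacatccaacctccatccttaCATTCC

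The LINC00881 sequence holds AGATAA at 2 places, starting 115 and 80 bases before the annotated start, and 2 or more such matches occurred in 1.07% of 27305 RefSeq promoters of this length. LINC01531 has 1 AGATAA and 1 CATTCC, LINC00960 has 1 CATTCC, and the LINC01460 sequence has no match but holds 21 CG dinucleotides against 9 in LINC00881. Promoters were matched for 50 of the 75 RNAs. AGATAA was found in 6 of these 50 (12.0%, against 10.5% of all RefSeq promoters), TATAAA in 4 (8.0% against 12.0%) and CATTCC in 5 (10.0% against 14%). The MEF2 motif was found in 0 of the 50, and in 0.593% of all promoters. The promoters of the 50 had a median of 21 CG dinucleotides against 14 over all RefSeq promoters. The median was 15 in the 17 whose RNA fell between Day 30 and Day 113 and 22 in the 32 whose RNA did not pass the test. These letter matches describe the sequence and do not show that a factor binds there.

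Each library held between 24.1 and 34.5 M counts (M, units of 1000000), and levels are given as CPM, counts per 1000000 counts after TMM scaling. The cultures carried cardiomyocyte RNA on every day: the summed level of 10 cardiomyocyte markers was 26840 to 38240 CPM at Day 30, 33050 to 37830 at Day 60 and 27910 to 30820 at Day 113. MYH7 was the largest part of this sum, at means of 15410 CPM at Day 30 and 9277 at Day 113. The markers did not move together: from Day 30 to Day 113, 3 rose (TNNT2, TNNI3 and MYL2) and 2 fell (MYH7 and ACTN2). The summed level of 11 endoderm and liver markers went from 448.8 to 1287 CPM at Day 30 to 45.5 to 56.5 at Day 60 and 26.3 to 46.2 at Day 113, and 10 of the 11 fell between Day 30 and Day 60. The exception, SOX17, did not pass then and rose after Day 60, from a mean of 1.08 to 8.00 CPM (adjusted p = 0.011). Of 8 epithelial markers 7 fell between Day 30 and Day 60, and their summed level was 2162 to 3112 CPM at Day 30, 1292 to 1478 at Day 60 and 1177 to 1966 at Day 113. Keratins carried that sum, with KRT8, KRT18 and KRT19 at means of 971, 382 and 117 CPM at Day 113. After Day 60 KRT8 and KRT18 rose and KRT19 and CLDN6 fell. From Day 30 to Day 113 EPCAM, CDH1, CLDN6, ESRP1 and GRHL2 went from 59.4, 69, 131, 17.1 and 17.1 CPM to 0.97, 4.75, 2.36, 3.80 and 0.051. Of 4 smooth muscle markers 3 rose from Day 30 to Day 113, with sums of 489 to 736, 619 to 846 and 778 to 1214 CPM at the 3 days. The 8 markers of endothelium summed to 54.9 to 88.4, 37.3 to 62.8 and 208 to 832 CPM at the 3 days, and all 8 rose after Day 60. Fibroblast markers (8) summed to 3353 to 7707, 2070 to 3570 and 5431 to 13040 CPM, with 4 of them higher and 2 (PDGFRA and LUM) lower at Day 113 than at Day 30, and markers of dividing cells (8) to 438 to 557, 678 to 978 and 278 to 530 CPM. The part of these other cells in the LINC levels was not tested. In such bulk samples fewer cells of a type and less RNA per cell cannot be told apart.

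Together the 75 RNAs held 420137 counts, 0.128% of all counts, and a few dominated. LINC00881 alone held 13.4% of these counts and the 6 most counted RNAs 42.8%. Mean levels over the 11 wells ran from 3.10 to 173 CPM with a median of 7.89. Per 1000 bases of exon (GENCODE v29 exons, since the lengths used by the authors were not given), LINC00881 led with a mean level of 136 CPM, followed by LINC00674 with 110 and LINC01405 with 32.0. Of the 75, 74 could be placed, and they lie on 20 chromosomes. For 17 of them an exon overlaps an exon of another gene in the table, and as the sources do not state whether counting used strand, those counts are uncertain. Of the RNAs named below this applies to LINC00960 (ZNF717), LINC00476 (ERCC6L2) and LINC00667 (LINC00526).

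LINC00881 (chr3:157089881-157101135), which has been described as a cardiac-enriched RNA, was the most abundant on every day. Its levels were 179, 190.2, 179 and 184 CPM in the Day 30 wells, 183, 178 and 202.5 in the Day 60 wells, and 129, 189, 140 and 150 in the Day 113 wells (replicates 1 to 4; 183 ± 5.44, 188 ± 13.0 and 152 ± 26.3, SD). Of the Day 113 wells 3 lay below all earlier wells, while replicate 2 lay among them, so the days overlapped. The log2 change from Day 30 to Day 113 was -0.27 ± 0.11 (SE) and missed the threshold in edgeR's quasi-likelihood test (adjusted p = 0.067). Without Day 113 replicate 2 it was -0.39 with an adjusted p of 0.0017, and with all wells DESeq2 gave an adjusted p of 0.043.

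LINC01405 (chr12:110936602-110937448), named VHRT in RefSeq, lies beside MYL2, the gene of the ventricular regulatory myosin light chain. It stood at 63.1, 59.9, 54.7 and 65.1 CPM at Day 30, at 48.2, 64.1 and 51.6 at Day 60, and at 22.9, 53.1, 24.5 and 29.3 at Day 113. Again Day 113 replicate 2 stood apart, within the Day 60 range, and the other Day 113 wells were below every earlier well. LINC01405 fell from Day 30 to Day 113 by 0.91 ± 0.21 on the log2 scale (adjusted p = 0.0028) and from Day 60 to Day 113 by 0.76 ± 0.22 (adjusted p = 0.020). The later change was -1.10 without Day 113 replicate 2. It lost its call without Day 60 replicate 2 (adjusted p = 0.090) or without Day 113 replicate 3 (adjusted p = 0.059).

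LINC00982 (chr1:3059617-3067725) is the divergent transcript of PRDM16, which encodes a transcription factor of the compact ventricular wall. Its levels were 93.7, 75.9, 90.9 and 103 CPM at Day 30, 80.0, 91.0 and 79.2 at Day 60, and 69.7, 99.5, 65.9 and 84.6 at Day 113. The days overlapped and no pair of days passed the test. In 1 of 19 alternative settings, without Day 113 replicate 2 (the highest Day 113 well), did the change from Day 30 to Day 113 pass, at -0.31 with an adjusted p of 0.048.

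LINC01578 (chr15:92882843-92898747), also called CHASERR, is an RNA known to restrain its neighbour CHD2, a chromatin remodeller. It was measured at 88.2, 91.6, 86.0 and 77.4 CPM at Day 30, 98.1, 84.4 and 93.4 at Day 60, and 54.0, 78.6, 64.5 and 64.0 at Day 113. All Day 113 wells were below all Day 60 wells, while 1 of them overlapped Day 30. It fell by 0.50 ± 0.12 on the log2 scale from Day 60 to Day 113 (adjusted p = 0.0061) and by 0.40 ± 0.11 from Day 30 (adjusted p = 0.010).

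The other abundant RNAs moved little. LINC01000 (chr7:128641241-128660998) was at 86.3 ± 9.49 (SD, n = 4), 88.2 ± 3.71 (n = 3) and 83.1 ± 7.45 (n = 4) CPM at the 3 days. LINC00674 (chr17:68101555-68135929) was at 80.1 ± 3.77, 74.7 ± 3.62 and 85.0 ± 4.34 CPM, and LINC00667 (chr18:5238100-5246508) at 37.4 ± 1.68, 39.6 ± 3.90 and 41.2 ± 2.59. None of these passed the test for any pair of days, with absolute log2 changes of at most 0.19. LINC01000, LINC00982, LINC00674 and LINC01578 followed LINC00881 at mean levels whose day ranges overlapped at Day 30.

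**Figure D1:**
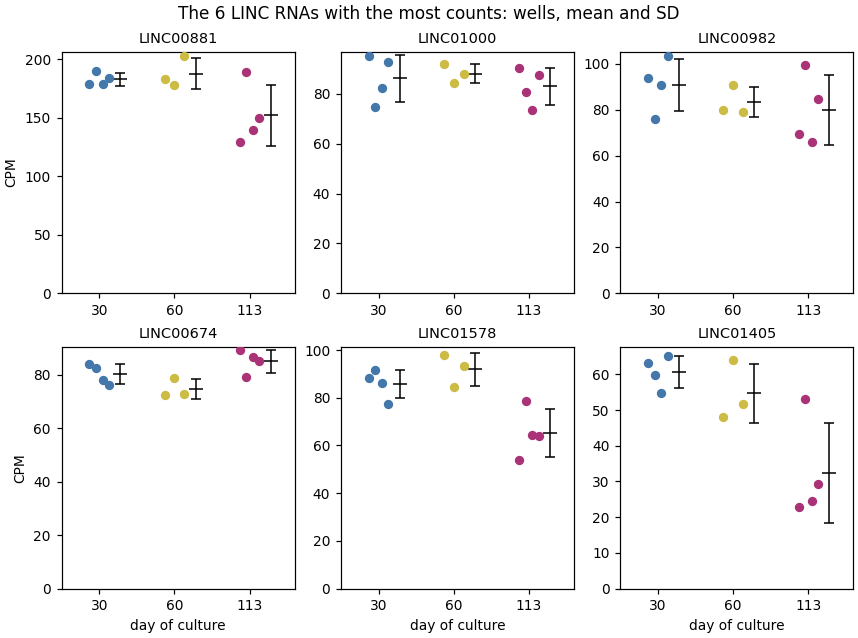
Levels of the 6 LINC RNAs with the most counts, in CPM (vertical axes, each from 0), against day of culture. Points are wells (4, 3 and 4) and the bars beside them the mean and SD. LINC00881 stood at 129 to 202.5 CPM, and LINC01405 fell to 22.9 to 29.3 CPM in 3 of the 4 Day 113 wells.

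The summed level of the 75 RNAs was 1414, 1312, 1345 and 1386 CPM at Day 30 (1364 ± 45.3, SD), 1385, 1372 and 1367 at Day 60 (1375 ± 9.40) and 1086, 1250, 1088 and 1183 at Day 113 (1152 ± 79.7). Every Day 113 well was below every earlier well. As LINC00881 and its fellows of high abundance weigh most in such a sum, the count of RNAs that moved is given next.

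Between Day 30 and Day 60, 5 of the 75 RNAs passed the test (adjusted p under 0.05), 3 higher and 2 lower, while 10.3% of all rows did (4.39% higher, 5.91% lower). Between Day 60 and Day 113, 23 passed, 4 higher and 19 lower, against 24.0% of all rows (12.9% higher, 11.1% lower). Between Day 30 and Day 113, 29 passed, 4 higher and 25 lower, against 34.5% of all rows (17.3% higher, 17.2% lower). In either direction, 6.67%, 30.7% and 38.7% of the 75 passed in the 3 comparisons. Among all 12961 rows with at least 1000 counts the shares were higher, at 13.5%, 32.4% and 44.3%. At Day 113 against Day 30, 23.0% of those rows were higher and 21.3% lower. The lower calls of the LINC RNAs (33.3%) were above that share and their higher calls (5.33%) below it.

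The comparisons share wells and so are not independent of each other. Of the 19 RNAs that fell between Day 60 and Day 113, 18 were also lower than at Day 30, and LINC00260 was lower than at Day 60 only. The median log2 change of the 75 was 0.02 from Day 30 to Day 60, -0.30 from Day 60 to Day 113 and -0.18 from Day 30 to Day 113, where the medians over all rows were -0.01, 0.00 and -0.02. Over the 60 RNAs at 1000 or more on every day, 3 were higher and 19 lower at Day 113 than at Day 30. The shares were 17.3% and 17.2% of all rows, and 23.0% and 21.3% of rows with at least 1000 summed counts. Neither set of rows was held to the rule for every day. By a change of at least 1 on the log2 scale, 3 RNAs were higher and 12 lower in that comparison (6.07% and 7.12% of all rows).

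The wells themselves show the same lean. All Day 113 wells lay below all Day 30 wells for 24 of the 75 RNAs and above them for 5, with 18.0% and 17.1% over all rows. Against Day 60 these numbers were 21 and 10 (14.4% and 16.2% of rows), and for Day 60 against Day 30 they were 9 below and 9 above (14.1% and 10.7% of rows). Over rows of at least 1000 counts the shares below and above were 20.9% and 21.7%, 16.8% and 21.0%, and 17.3% and 12.9%, in the same order. By the edgeR test, the 284 LINC rows under 1000 counts had 31 lower (10.9%) and 20 higher (7.04%) at Day 113 than at Day 30. Of 152 antisense RNAs with at least 1000 counts 26 were lower (17.1%) and 22 higher (14.5%). Of all rows 17.2% and 17.3% were, and of rows with at least 1000 counts 21.3% and 23.0%. From Day 60 to Day 113 both of these groups leaned lower as well. The antisense RNAs had 24 lower (15.8%) and 6 higher (3.95%), and the LINC rows under 1000 counts 18 lower (6.34%) and 7 higher (2.46%). Of all rows 11.1% were lower and 12.9% higher in that interval, and of rows with at least 1000 counts 14.5% and 17.8%. The lean after Day 60 is thus not particular to the 75.

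**Figure D2:**
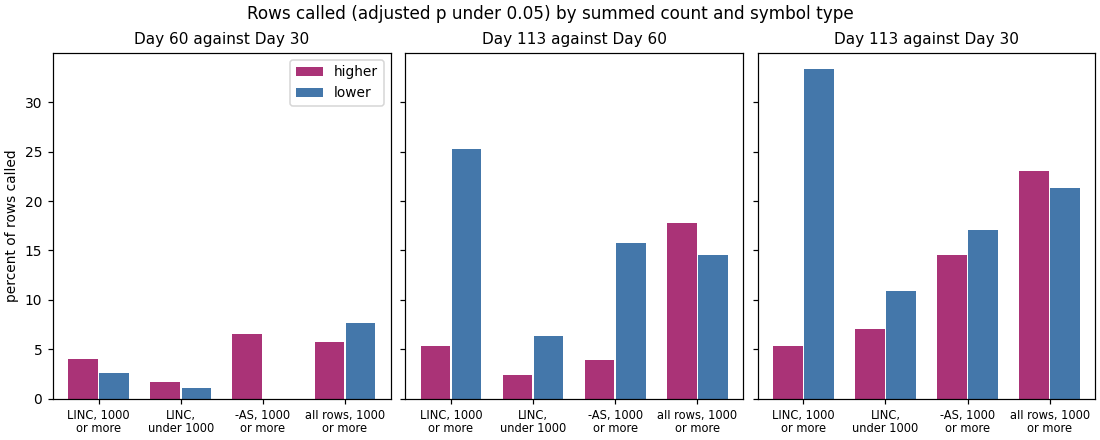
Percent of rows called higher or lower (vertical axis; edgeR, adjusted p under 0.05) in each pair of days, for the 75 LINC RNAs, the 284 LINC rows of fewer counts, 152 antisense RNAs and all 12961 rows of at least 1000 counts. At Day 113 against Day 30 the LINC RNAs had 33.3% lower and 5.33% higher, all such rows 21.3% and 23.0%.

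LINC02381 (chr12:54126071-54132843) fell most. It was at 6.61, 11.3, 9.21 and 4.60 CPM at Day 30, at 0.99, 2.21 and 2.37 at Day 60, and at 0, 0.94, 0.14 and 0.60 at Day 113. The 3 days did not overlap, and Day 113 replicate 1 had no count. It fell by 4.29 ± 0.68 on the log2 scale from Day 30 to Day 113 (adjusted p = 0.00017). The step from Day 60 to Day 113, -2.20 ± 0.69 (adjusted p = 0.030), was lost with DESeq2 (adjusted p = 0.067), with robust dispersions (0.057) and without Day 60 replicate 2 (0.078), Day 60 replicate 3 (0.095) or Day 113 replicate 3 (0.078). It was -3.39 with limma-voom. The step from Day 30 to Day 60, -2.10 ± 0.66, missed the threshold (adjusted p = 0.055) and passed with limma-voom (adjusted p = 0.015) and without Day 113 replicate 1 (0.0075) or replicate 2 (0.028). LINC02381 reached 1000 summed counts through its Day 30 wells, so its place among the 75 was itself set by that day.

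LINC01460 (chr2:27705786-27715732) fell in the later interval. Its wells were at 7.03, 6.84, 9.84 and 8.35 CPM at Day 30, at 6.96, 11.2 and 7.95 at Day 60, and at 1.16, 0.79, 1.83 and 1.20 at Day 113. Days 30 and 60 overlapped and every Day 113 well was far below both. It fell by 2.79 ± 0.29 on the log2 scale from Day 60 to Day 113 (adjusted p = 1.2e-05) and by 2.68 ± 0.28 from Day 30 (adjusted p = 2.6e-06).

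LINC00960 (chr3:75672281-75679303) fell in the earlier interval. It was at 11.3, 10.3, 9.64 and 6.73 CPM at Day 30, at 3.48, 3.43 and 2.37 at Day 60, and at 2.34, 1.69, 2.63 and 2.29 at Day 113. All Day 30 wells were above all later wells, and the later days overlapped. It fell by 1.62 ± 0.27 on the log2 scale from Day 30 to Day 60 (adjusted p = 0.0011) and by 2.08 ± 0.25 from Day 30 to Day 113 (adjusted p = 1.1e-05).

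LINC01503 (chr9:129336923-129347477) had its lowest wells at Day 113, at 5.42, 4.94, 6.42 and 4.95 CPM at Day 30, 3.35, 3.13 and 3.85 at Day 60, and 1.16, 1.35, 2.43 and 0.96 at Day 113. The 3 days did not overlap. The fall from Day 30 to Day 113 was 1.87 ± 0.31 on the log2 scale (adjusted p = 0.00020) and from Day 60 LINC01503 fell by 1.22 ± 0.32 (adjusted p = 0.012), while the first step of -0.66 ± 0.32 did not pass (adjusted p = 0.23). LINC00665 (chr19:36313061-36331753) was more abundant, going from 20.1 to 25.5 CPM at Day 30 over 14.8 to 20.9 at Day 60 to 8.27 to 13.7 at Day 113. It fell by 1.13 ± 0.17 on the log2 scale from Day 30 to Day 113 (adjusted p = 9.5e-05). The first step, -0.45 ± 0.18, did not pass (adjusted p = 0.14), and its fall of 0.68 from Day 60 was lost without Day 60 replicate 2 (adjusted p = 0.073).

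LINC02649 (chr10:6326544-6335982) and LINC01001 (chr11:127134-139117) had their highest mean at Day 60. LINC02649 was at 4.81, 2.47, 2.501 and 3.37 CPM at Day 30, at 6.83, 3.54 and 8.01 at Day 60, and at 2.11, 0.67, 0.77 and 1.12 at Day 113. LINC01001 was at 7.49, 3.44, 4.21 and 4.09 CPM at Day 30, at 7.60, 4.50 and 6.75 at Day 60, and at 2.05, 2.03, 2.20 and 1.57 at Day 113. For both, all Day 113 wells were below all others, and Days 30 and 60 overlapped. From Day 60 to Day 113 LINC02649 fell by 2.38 ± 0.42 on the log2 scale (adjusted p = 0.00083) and LINC01001 by 1.68 ± 0.31 (adjusted p = 0.0011).

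LINC01278 (chrX:63426558-63561095) is an abundant RNA with a modest decline, at 59.3, 52.8, 48.6 and 53.1 CPM at Day 30, 43.8, 37.7 and 40.4 at Day 60, and 40.6, 30.8, 31.1 and 37.4 at Day 113. Every Day 30 well was above every later well. It fell by 0.61 ± 0.11 on the log2 scale from Day 30 to Day 113 (adjusted p = 0.00053). The first step, -0.39 ± 0.12, was at the threshold (adjusted p = 0.048) and passed in only 8 of 19 alternative settings, with adjusted p-values of 0.027 to 0.17 among them. It was lost, among other settings, without any one of the Day 30 or Day 60 wells.

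The remaining RNAs that fell from Day 30 to Day 113 did so by 0.53 to 1.39 on the log2 scale. Named here after their values were seen, LINC01004 (next to KMT2E, a chromatin regulator) had the smallest adjusted p of the 75. Its wells were at 20.9 to 24.9 CPM at Day 30, 21.0 to 22.1 at Day 60 and 8.30 to 9.90 at Day 113, so that all Day 113 wells were far below the rest. It fell by 1.30 ± 0.12 on the log2 scale from Day 30 to Day 113 (adjusted p = 9.7e-07). LINC00963, chosen in the same way, was at 27.2 ± 2.78 (SD), 25.7 ± 1.45 and 10.4 ± 4.15 CPM and fell by 1.39 ± 0.21 (adjusted p = 0.00010), with Day 113 replicate 2 again the highest Day 113 well at 16.1 CPM.

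**Figure D3:**
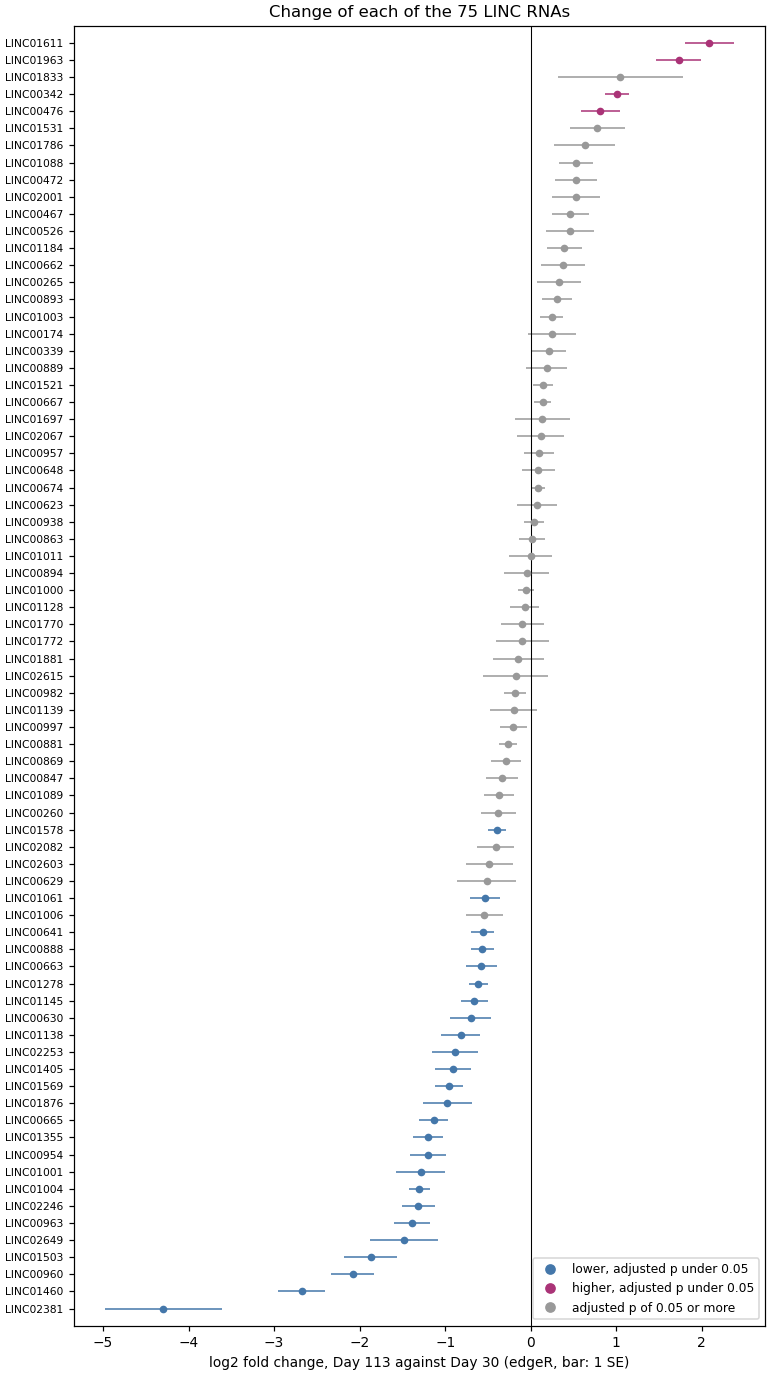
The log2 fold change from Day 30 to Day 113 (horizontal axis; edgeR, bars 1 SE) for each of the 75 LINC RNAs, ordered by size. The 25 RNAs that passed as lower reach from LINC01578 at -0.40 to LINC02381 at -4.29, and the 4 that passed as higher from LINC00476 at 0.81 to LINC01611 at 2.09.

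Only 4 of the 75 rose from Day 30 to Day 113. LINC01611 (chr6:84421028-84474929) was at 1.72, 3.44, 3.09 and 4.74 CPM at Day 30, at 4.88, 5.60 and 9.37 at Day 60, and at 11, 16.0, 12.2 and 16.3 at Day 113. The 3 days did not overlap. LINC01611 rose by 2.09 ± 0.29 on the log2 scale over the whole time (adjusted p = 4.3e-05), by 1.02 ± 0.30 to Day 60 (adjusted p = 0.040) and by 1.06 ± 0.30 after it (adjusted p = 0.018). It was the only RNA of the 75 called higher in both intervals. The first step did not pass with limma-voom (adjusted p = 0.070) nor without Day 30 replicate 1 (0.096), 2 (0.075) or 3 (0.094), Day 60 replicate 2 (0.054) or 3 (0.23), or Day 113 replicate 3 (0.051). The second was lost without Day 60 replicate 1 (0.093) or 2 (0.071).

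LINC01963 (chr2:216216889-216220192), a transcript of 1 exon, rose late. It was at 2.48, 2.10, 1.68 and 1.75 CPM at Day 30, at 2.43, 1.66 and 2.02 at Day 60, and at 4.99, 7.76, 6.76 and 7.14 at Day 113. All Day 113 wells were above all others, and the earlier days overlapped. It rose by 1.71 ± 0.29 on the log2 scale from Day 60 (adjusted p = 0.00059) and by 1.73 ± 0.26 from Day 30 (adjusted p = 0.00011), and it reached 1000 summed counts through its Day 113 wells alone.

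LINC00342 (chr2:95807052-95826981) was at 7.64, 7.81, 8.00 and 9.28 CPM at Day 30, at 11.7, 11.5 and 10.1 at Day 60, and at 17.0, 15.2, 15.7 and 18.0 at Day 113, with no overlap between days. It rose by 1.01 ± 0.14 on the log2 scale from Day 30 to Day 113 (adjusted p = 4.7e-05). Its rise of 0.57 ± 0.15 from Day 60 (adjusted p = 0.012) was lost without Day 60 replicate 3 (0.057). LINC00476 (chr9:95806088-95875977), whose exons overlap ERCC6L2, was at 5.65 to 6.55 CPM at Day 30, 5.86 to 6.72 at Day 60, and 8.57, 8.21, 8.50 and 16.7 at Day 113. All Day 113 wells were above the others, and replicate 4 stood far above the rest. LINC00476 rose by 0.81 ± 0.23 on the log2 scale from Day 30 (adjusted p = 0.011), and by 0.50 without Day 113 replicate 4. Its rise of 0.75 from Day 60 (adjusted p = 0.036) was lost in 8 of 19 settings, among them without Day 113 replicate 4 (0.44, adjusted p = 0.12) and without any one of the Day 60 wells.

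**Figure D4:**
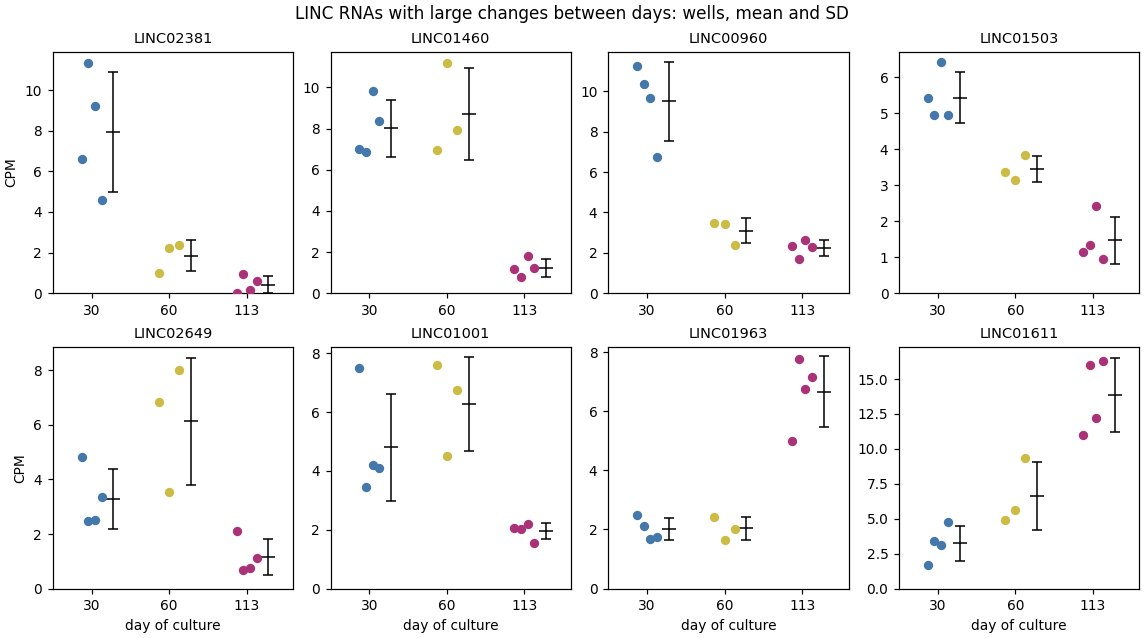
Levels in CPM (vertical axes, each from 0) against day of culture for 8 LINC RNAs with large differences between days; points are wells and the bars beside them the mean and SD. LINC00960 was already low at Day 60 (2.37 to 3.48 CPM), LINC01460 only at Day 113 (0.79 to 1.83), and LINC01963 and LINC01611 were highest at Day 113.

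Beside LINC01611, 2 RNAs rose between Day 30 and Day 60. LINC01531 (chr19:35405607-35416840) was at 3.55, 1.43, 1.48 and 4.09 CPM at Day 30, at 7.82, 6.30 and 7.44 at Day 60, and at 3.90, 4.27, 4.45 and 5.46 at Day 113. All Day 60 wells were above all others, while Days 30 and 113 overlapped. LINC01531 rose by 1.45 ± 0.34 on the log2 scale (adjusted p = 0.012), and the later step of -0.67 ± 0.34 did not pass (adjusted p = 0.17). LINC01088 (chr4:78971748-79308799) was at 12.2, 10.9, 14.6 and 11.8 CPM at Day 30, at 15.1, 26.4 and 23.3 at Day 60, and at 21.0, 21.8, 12.1 and 16.6 at Day 113. Its Day 60 wells were above all Day 30 wells, and Day 113 overlapped both. It rose by 0.81 ± 0.21 (adjusted p = 0.024), a call lost without Day 60 replicate 2 (0.12) or 3 (0.081) or Day 30 replicate 1 (0.059), 2 (0.066) or 4 (0.055).

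The log2 change of the second interval was also tested directly against that of the first. The difference passed for 7 of the 75 RNAs (9.33%), all with the later change lower than the earlier one. Of all rows 9.34% passed, 4.38% in that direction and 4.97% in the other. Of rows with at least 1000 counts 12.8% passed, 5.92% in that direction and 6.91% in the other. Of the 152 antisense RNAs with at least 1000 counts 12 passed (7.89%), also all in that direction. Of the 284 LINC rows under 1000 counts 4 (1.41%) passed in that direction and 5 (1.76%) in the other. Among the 75, the lowest differences were those of LINC02649 (-3.28 ± 0.69, adjusted p = 0.0078), LINC01460 (-2.91 ± 0.46, adjusted p = 0.0015) and LINC01531 (-2.12 ± 0.58, adjusted p = 0.032). The others were LINC01001, LINC00260, LINC02246 and LINC01004, between -2.07 and -1.15. For LINC00960 the difference was 1.16 ± 0.47 and did not pass (adjusted p = 0.14), so its early fall is not shown to differ from its later course. The test over all 3 days at once called 32 of the 75 (42.7%), against 37.1% of all rows and 48.5% of rows with at least 1000 counts.

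In 43 of the 75 no pair of days passed the test, which does not show that their levels were equal. Of these, 9 had log2 changes within 0.2 for every pair of days, LINC01000, LINC00674 and LINC00667 among them. The shares of all rows that match either count were not worked out. LINC00472 (chr6:71407864-71420745) lay at the threshold from Day 60 to Day 113 (5.87 ± 1.05 to 9.90 ± 2.22 CPM, log2 change 0.75 ± 0.27, adjusted p = 0.050) and passed in 5 of 19 settings. Within a day the median coefficient of variation over the 75 was 14.03% at Day 30, 16.0% at Day 60 and 18.1% at Day 113. Within Day 113, replicates 1 to 4 held the highest level of 12, 31, 12 and 20 of the 75, and the lowest of 29, 22, 11 and 13. The same counts over all rows were not made. In replicates 1 to 4 the fibroblast markers summed to 13040, 6758, 11270 and 5431 CPM and the endothelial markers to 832, 339.5, 393 and 208 CPM. Replicate 4 had the lowest of both sums, and the part of these cells in the LINC levels was not tested.

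Many LINC RNAs are transcribed close to a coding gene, and 74 of the 75 could be placed beside the nearest protein-coding gene of the table. The pairs ran on the same strand in 33 cases, head to head in 15 and tail to tail in 14, in 10 the spans overlapped, and for 2 no strand was given. Of the 25 RNAs that fell between Day 30 and Day 113, the neighbour fell in 8, rose in 5 and did not pass in 12. Of the 4 that rose, the neighbour rose for 1 (XRCC5 beside LINC01963) and did not pass for 3. Over all 74 pairs, which held 73 distinct neighbours, the neighbour passed in either direction in 31. Across the 74 pairs the log2 changes of RNA and neighbour had a Pearson r of 0.25, 0.09 and 0.19 for Day 60 against Day 30, Day 113 against Day 60 and Day 113 against Day 30. These are descriptions across pairs measured in the same libraries.

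MYL2 moved against its neighbour LINC01405, whose start lies 15153 bases away. It was at 157, 161, 119 and 196 CPM at Day 30, 428, 436 and 460.2 at Day 60, and 634, 1068, 960 and 493 at Day 113. No day overlapped another, and MYL2 rose by 2.32 ± 0.21 on the log2 scale from Day 30 to Day 113 (adjusted p = 6.0e-07) where LINC01405 fell by 0.91. Day 113 replicate 2 was the highest of the Day 113 wells for both.

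CHD2, downstream of LINC01578 on the same strand, was at 178, 170.1, 174 and 168 CPM at Day 30, 140.3, 147 and 142 at Day 60, and 130.3, 99.5, 119 and 125 at Day 113. The days did not overlap, and CHD2 fell by 0.55 ± 0.09 on the log2 scale from Day 30 to Day 113 (adjusted p = 0.00022), as LINC01578 fell by 0.40. PRDM16, head to head with LINC00982, was at 138 ± 16.7 (SD), 128 ± 13.6 and 114 ± 34.0 CPM and did not pass for any pair of days, like LINC00982.

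In 11 pairs on opposite strands, head to head or with overlapping spans, the starts lay within 5000 bases. Their log2 changes had a Pearson r of 0.96, 0.65 and 0.68 for the 3 pairs of days in the order above, and of 0.50, 0.36 and 0.37 without LINC01833 and SIX3. The Spearman rho was 0.66, 0.35 and 0.69, and 0.55, 0.14 and 0.59 without that pair. LINC01833 (chr2:44921080-44939199), named after its values were seen, starts beside SIX3, a transcription factor of the eye and forebrain. It was at 0.23, 2.80, 3.23 and 1.13 CPM at Day 30, 3.00, 13.2 and 10.1 at Day 60, and 0.52, 1.69, 5.05 and 8.18 at Day 113, while SIX3 was at 1.68, 4.44, 3.98 and 1.55, then 10.1, 20.5 and 25.0, then 1.10, 5.81, 13.0 and 11.2. On each day the lower wells of one were the lower wells of the other. SIX3 rose from Day 30 to Day 60 by 2.66 ± 0.58 on the log2 scale (adjusted p = 0.0076), and LINC01833, with wells that overlapped, had a change of 2.23 ± 0.77 that did not pass (adjusted p = 0.082). Of 9 neural and retinal markers, SIX3 among them, 3 rose in that interval and 0 fell, and their summed level was 25.6 to 64.8, 55.9 to 136 and 27.9 to 84.1 CPM at the 3 days. Their part in the level of LINC01833 was not tested.

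**Figure D5:**
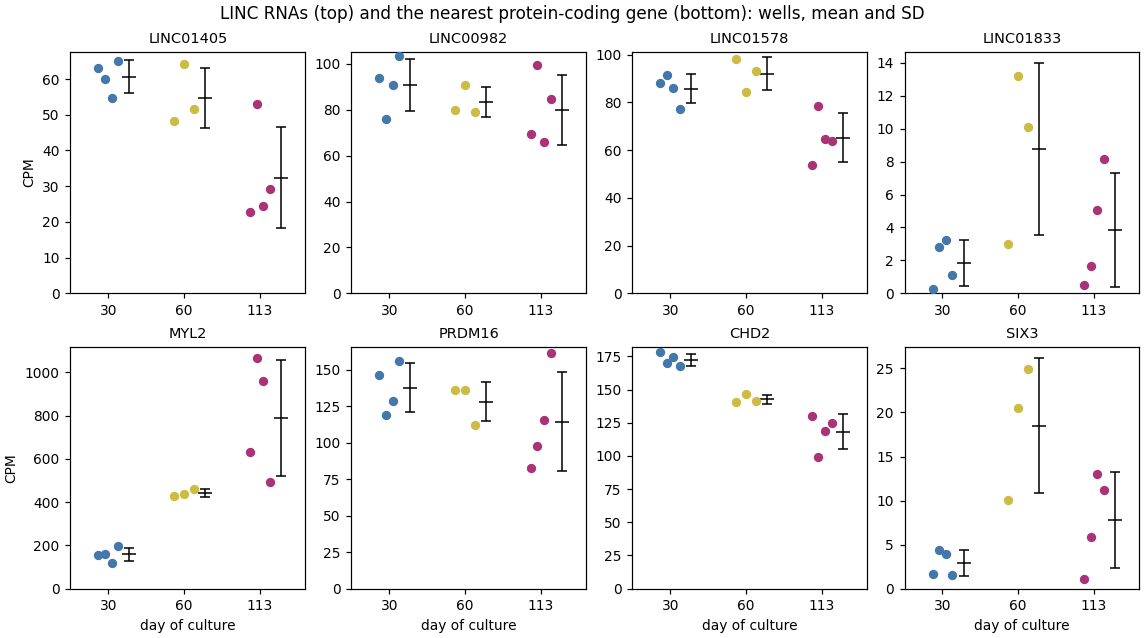
Levels in CPM (vertical axes, each from 0) against day of culture for 4 LINC RNAs (top) and their nearest protein-coding gene (bottom); points are wells and the bars the mean and SD. MYL2 reached 493 to 1068 CPM at Day 113 as LINC01405 stood at 22.9 to 53.1, CHD2 and LINC01578 were both lower at Day 113, and LINC01833 and SIX3 had low and high wells in common.

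Other long noncoding RNAs with established names were set beside the LINC RNAs from a list of 25. Between Day 30 and Day 113, 11 of the 25 fell and 3 rose (17.2% and 17.3% of all rows), with a median log2 change of -0.29, and between Day 60 and Day 113, 8 fell and 1 rose (11.1% and 12.9% of all rows). KCNQ1OT1, an imprinted regulator, fell by 1.28 on the log2 scale from Day 30 to Day 113 (adjusted p = 0.00055), and GAS5, a host of small nucleolar RNAs, fell by 0.92 (adjusted p = 2.7e-05). Between Day 30 and Day 60, 3 rose, which were MALAT1, NEAT1 (both nuclear RNAs) and HAND2-AS1 (beside the cardiac factor HAND2), and MEG3, another imprinted RNA, fell. MALAT1 was at 33.9 to 49.8 CPM at Day 30 and at 45.2, 118 and 144.5 in the Day 60 wells, so that Day 60 replicate 1 lay within the Day 30 range. MIR503HG, host of a microRNA cluster, rose by 3.43 on the log2 scale from Day 30 to Day 113 (adjusted p = 8.3e-05), from 0.40 to 4.35 CPM.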

How the data were processed

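RNA of 11 wells of WTC11-derived cardiomyocytes (4, 3 and 4 at Days 30, 60 and 113) was measured by poly(A) RNA-seq. The authors deposited whole-number read counts for 19990 gene symbols and a TPM table, made with STAR 2.5.3a and featureCounts 2.0.3 on hg38, per the submitters' processing notes. The annotation, the strand setting and the gene lengths behind the TPM values are not given in the sources used here. The deposited TPM values were not used in comparisons, because the gene lengths that they imply did not agree between libraries (median Spearman rho of -0.00095 over 55 library pairs and 14718 genes).

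Counts were fitted for all genes with edgeR 4.0.16 (limma 3.58.1, R 4.3.3) in one quasi-likelihood model with day as the factor, TMM scaling and Benjamini-Hochberg adjustment over 19990 genes per contrast (threshold 0.05). Every adjusted p is from this test unless another tool is named. The low-count filter filterByExpr, at a minimum of 10, left all genes in. The standard error is the size of the log2 change over the root of its F statistic. Library totals were 24.1 to 34.5 M counts (M, units of 1000000), without molecular identifiers, so precision from depth covers counting error only. Wells were grouped by the day in their labels. Alternatives were other scalings, DESeq2 1.42.0, limma-voom, robust dispersions, other filters, a block on replicate number, each well left out, and thresholds of 500 and 2000 counts for membership. The procedure was tested on simulated counts.

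The RNAs, lists and tests were chosen with earlier results of these data known. Named RNAs were the 4 highest and 4 lowest changes that passed in each pair of days, the 3 highest and 3 lowest differences between intervals that passed, the 6 highest mean CPM, any at 3 counts or fewer in all wells of a day, and members of a short list of LINC RNAs with known roles; LINC01004, LINC00963, LINC00260, LINC02246 and LINC01833 were named after their values were seen. Positions come from RefSeq on GRCh38.p14 (63 of 75 matched by symbol, 11 by synonym, 1 not placed), exons from GENCODE v29 (68 of 75). MEF2 was searched by its degenerate motif, and every motif on both strands.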

Additional observations from a re-analysis of the deposited data

Results flagged for a closer look

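In LINC00476, Day 113 replicate 4 stood at 16.7 CPM, where the other 3 Day 113 wells were at 8.21 to 8.57 CPM. The gap to the nearest well was 0.957 of the whole range of that day. This was 1 of 44 groups of 4 wells examined over 22 named RNAs at Days 30 and 113, where chance flags about 1 in 20 groups. That rate is only a rough guide, as the groups share wells and most of the RNAs were named for their levels or changes. An exon of LINC00476 overlaps ERCC6L2, and its counts are therefore uncertain.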

How the results depend on the processing

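The number of LINC RNAs that passed moved with the number admitted by the membership threshold and with single wells. In the main fit (75 RNAs) 5, 23 and 29 passed for the pairs of days in the order below. With a threshold of 2000 counts (45 RNAs) 3, 15 and 18 passed for Day 60 against Day 30, Day 113 against Day 60 and Day 113 against Day 30, 3 for the difference between intervals and 19 over all days. With 500 counts (120 RNAs) the pairs of days gave 8, 35 and 45. DESeq2 called 12 interval differences where edgeR called 7, and over all rows it called 2635 where edgeR called 1868. Leaving out each well gave 2 to 8, 17 to 27 and 25 to 31 calls for the 3 pairs of days, 3 to 12 for the interval difference and 25 to 35 over all days. The early count was 2 without Day 30 replicate 1, Day 30 replicate 2 or Day 60 replicate 2, 3 without Day 30 replicate 3, Day 30 replicate 4, Day 60 replicate 3 or Day 113 replicate 3, and 8 without Day 113 replicate 2. The interval count was 3 without Day 60 replicate 1 or 3 and 12 without Day 113 replicate 2. All other settings kept these counts within 1.5 times. The calls over all rows moved as well when each well was left out. They were 1220 to 2618 for Day 60 against Day 30 (2060 in the main fit) and 3317 to 4735 for Day 113 against Day 60 (4790). For Day 113 against Day 30 they were 5657 to 6977 (6889), and for the interval difference 643 to 2221 (1868).

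Same-numbered wells of different days had correlated deviations in 6 of 10 pairs (r over 0.1, range 0.03 to 0.22, median 0.11). Among differently numbered wells this was so in 2 of 30 pairs (range -0.16 to 0.17, median -0.037). A well correlated best with its own number in 15 of 20 cases. The labels do not say whether wells of the same number are related, and the main fit did not use the number. A replicate block gave 7, 24 and 29 calls for the pairs of days, 8 for the interval difference and 30 over all days. With the block LINC02381 passed from Day 30 to Day 60 (adjusted p = 0.030) and LINC01531 from Day 30 to Day 113 (0.029), and LINC00476 lost its call from Day 60 to Day 113 (0.10).

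Of the values of single named RNAs, those that passed from Day 30 to Day 113 passed in every setting (266 of 266), 19 of 228 lost the call from Day 60 to Day 113, and 23 of 95 lost it from Day 30 to Day 60. These totals include the setting without a filter, which could not differ from the main fit. Values near 0 that had not passed changed sign. From Day 60 to Day 113 LINC00667 was -0.0054 with upper-quartile scaling and, with each well left out, -0.018 (without Day 60 replicate 3) to 0.13. LINC00982 was -0.18 to 0.020, and positive without Day 60 replicate 2 (0.0045) or Day 113 replicate 3. From Day 30 to Day 60, with each well left out, LINC01000 was -0.010 (without Day 30 replicate 2) to 0.082 and LINC01460 -0.10 (without Day 60 replicate 2) to 0.28. LINC01963 was -0.097 to 0.15, and negative without Day 30 replicate 3 (-0.051), Day 30 replicate 4 (-0.034) or Day 60 replicate 1. The cause was not tested. How the smallest detectable change depends on depth was not tested.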

Other observations

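Some LINC RNAs with a known role elsewhere were in the table below the threshold of 1000 counts. LINC00261, an RNA of definitive endoderm, had 214 counts over all libraries, LINC00473 had 194, LINC00673 had 179, LINC00632 (the host transcript of a neuronal circular RNA) had 105, and LINC00461, known from the brain, had 65. LINC00526 and LINC00667 share exon sequence on chromosome 18 and start head to head, yet LINC00526 was at 3.28, 3.15 and 4.52 CPM on average at the 3 days where LINC00667 was at 37.4, 39.6 and 41.2.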
